A study of Mus musculus with 6 samples.

Results

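Small nucleolar RNAs (snoRNAs) were examined on arrays of mouse soleus muscle. A gene was included when a feature of the array, the set of probes that reports 1 transcript, listed exactly 1 gene symbol and that symbol began with Snord or Snora followed by a digit. This gave 62 genes of 30145 in all, 44 of the C/D box class (Snord) and 18 of the H/ACA box class (Snora). Each gene is represented by 1 feature, and for the 4 genes that had 2 this was the brighter one on average. The rule used no measured difference between arrays, but it was set with earlier results of these data known. A further 42 features listed a snoRNA together with another gene and were left out, so 49 snoRNA symbols found only there are not analysed here, and neither are the copies of Snord113, Snord114, Snord115 and Snord116.

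The study compared knockout mice with littermate controls, using male mice aged 39 to 41 weeks whose soleus, a postural calf muscle, was taken from each leg and frozen. The 3 cKO mice carried a knockout of Mbtps1, which encodes the membrane-bound site-1 protease, made with a Cre recombinase under regulatory sequence of Dmp1, a gene best known from osteocytes. The 3 Control mice were littermates labelled wild type. Each mouse gave 1 array, hybridised with biotinylated cDNA made from 100 ng of total RNA that had passed a silica column with DNase treatment. The labels do not give the floxed allele's genotype in the controls or say which muscle cells the Cre reached.

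snoRNAs are short RNAs of the nucleolus that guide chemical changes of other RNAs, mainly ribosomal RNA. C/D box snoRNAs pair with their target and direct methylation of a ribose by fibrillarin (Fbl), held in a particle with Nop56, Nop58 and Snu13. H/ACA box snoRNAs direct the conversion of uridine to pseudouridine by dyskerin (Dkc1), with Nhp2, Nop10 and Gar1. A few, among them Snord118 (U8), Snord13, the Snord14 genes (U14) and the Snora73 genes (U17), act in the cleavage and folding of the ribosomal precursor. Most are encoded in introns of host genes and are released when the host transcript is spliced and trimmed.

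The ACA part of the H/ACA class's name stands for a short box close to the 3′ end of these RNAs. The sequence of 1 measured gene, Snora19, could be read because its annotated interval lies within an annotated miRNA hairpin, and it is shown as an example of the RNAs these features report. In RefSeq's GRCm38.p6 annotation Snora19 lies at chr19:60774330-60774385, inside the gene Eif3a, and the hairpin Mir3084-2 spans chr19:60774329-60774397 on the minus strand. The capitals mark the ACA box, which stands 3 bases from the end of the interval:
Snora19: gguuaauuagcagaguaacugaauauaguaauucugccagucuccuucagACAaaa
The interval is 56 bases long. The median annotated length was 120.5 bases over the 18 H/ACA genes, with a range of 56 to 205, and 68 bases over the 44 C/D genes, with a range of 28 to 221.

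The deposited table gave 1 log2 signal per feature and array, and the 6 arrays limit the precision of every value. The array median was 4.37 in cKO 1 and at most 4.13 in the other arrays, so cKO 1 ran above them. Mbtps1 itself read 7.39, 7.05 and 7.24 in the Control arrays and 7.77, 7.44 and 7.11 in the cKO arrays. Its feature therefore did not separate the groups, and the part of the gene it covers was not checked. All 9 muscle markers lay above the array medians, with list medians between 18.2 and 18.5, and 4 of 5 neuronal markers did not. Medians of 12 tendon markers were 5.55, 5.64 and 6.51 in the Control arrays and 6.92, 7.13 and 7.26 in the cKO arrays, and their part in the values below was not tested. In bulk muscle, fewer cells of a type and less RNA per cell cannot be told apart.

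One array stood apart for snoRNAs. Control 2 had the highest signal of the 6 arrays for 37 of the 62 genes, 27 of 44 in the C/D class and 10 of 18 in the H/ACA class. A filter kept features that exceeded the array's median on 3 or more arrays, and 57 of the snoRNAs passed it. Among these Control 2 was highest for 35, against 13.2% of all 33334 features tested. The signal exceeded the mean of the other 5 arrays by more than 1 log2 unit for 30 of 62 genes, 23 C/D and 7 H/ACA. Over the genes tested this was 29 of 57, against a background of 2.52%. The same excess was seen for 3 genes in cKO 1, 3 in cKO 3 and none in the remaining arrays. For 18 genes Control 2 was more than 1 unit above even the second-highest array (17 of the 57 tested, against 0.876%).

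**Figure D1:**
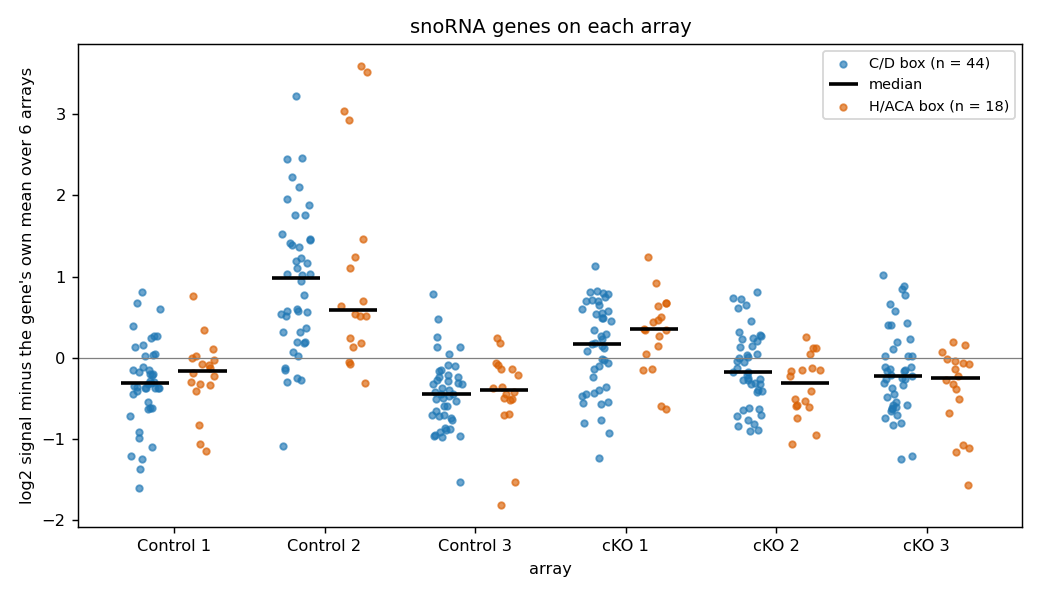
Each point is 1 snoRNA gene, plotted as its log2 signal on an array minus its own mean over the 6 arrays, with C/D box genes on the left and H/ACA box genes on the right of each array and a bar at the class median. Control 2 has class medians of 0.98 and 0.59 and holds every point above 1.5, while the medians of the other arrays lie between -0.45 and 0.35.

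The median excess of Control 2 over the mean of the other arrays was 0.89 log2 units over all 62 genes, 1.18 in the C/D class and 0.70 in the H/ACA class. Over all 65956 features it was -0.07. The snoRNAs were also more variable than most of the array. Their median range over the 6 arrays was 1.66, against 0.57 over all features, and was 1.83 for C/D and 1.15 for H/ACA genes. The median SD within the Control group was 0.71 and that within the cKO group 0.48.

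The rRNA-processing snoRNAs showed the gap of Control 2 most plainly in the Snora73 pair, which share the host Snhg3. Snora73a read 7.21, 11.87 and 7.90 in the Control arrays and 7.68, 7.87 and 7.11 in the cKO arrays. Snora73b read 7.69, 12.36 and 8.47 in the Control arrays and 9.34, 7.89 and 7.27 in the cKO arrays. Control 2 was thus 3.97 units above the next array for Snora73a and 3.01 units above it for Snora73b. The second feature of Snora73b gave the same shape, with 11.63 in Control 2 and 6.99 to 7.64 elsewhere. The 2 genes are close copies, so their features may not report them separately.

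Snord14e, a U14 gene inside the heat-shock cognate gene Hspa8, read 9.15, 11.88 and 9.30 in the Control arrays and 10.42, 8.93 and 8.94 in the cKO arrays. Snord13 read 10.30, 12.14 and 10.23 in the Control arrays and 10.13, 11.33 and 9.94 in the cKO arrays, so both Control 2 and cKO 2 were high. Its second feature repeated this, at 12.20 in Control 2, 11.52 in cKO 2 and 9.88 to 10.16 in the other arrays. Snord14a, the other U14 gene, had no such gap, with 6.26, 6.44 and 5.25 in the Control arrays and 6.92, 5.87 and 6.02 in the cKO arrays. Snord118 was near the floor of the array and was not tested, and its 2 features disagreed. The one used was 1.27 units higher in Control 2 than in the next array, and the other stayed between 2.72 and 2.93 on all arrays.

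Among the remaining H/ACA genes, Snora16a, Snora31 and Snora75 had the widest ranges. Snora31, a pseudouridylation guide inside Tpt1, read 7.39, 10.40 and 6.95 in the Control arrays and 6.84, 6.86 and 6.36 in the cKO arrays. Snora16a, inside Snhg12, read 9.59, 12.96 and 8.10 in the Control arrays and 11.15, 8.86 and 8.84 in the cKO arrays. In Snora16a Control 2 was followed by cKO 1, whereas in Snora31 all arrays but Control 2 lay within 1.1 units. Snora75, inside the nucleolin gene Ncl, read 7.55, 8.26 and 5.27 in the Control arrays and 7.24, 6.06 and 6.41 in the cKO arrays, and stood out by its low value in Control 3.

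Among C/D genes, Snord49b read 7.78, 11.72 and 6.96 in the Control arrays and 8.77, 7.86 and 7.89 in the cKO arrays. Snord58b, inside the ribosomal protein gene Rpl17, read 7.27, 11.10 and 7.73 in the Control arrays and 8.76, 8.69 and 8.31 in the cKO arrays. Snord111, inside the splicing factor gene Sf3b3, read 7.09, 10.07 and 7.26 in the Control arrays and 8.12, 6.82 and 6.41 in the cKO arrays. All 3 had Control 2 at least 1.9 units above the next array. Snord71 was already bright in every mouse and still showed the gap, with 12.50, 14.93 and 12.01 in the Control arrays and 13.42, 11.95 and 11.47 in the cKO arrays.

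Not every snoRNA followed Control 2. Snord35b had its lowest signal there, with 5.79, 4.68 and 6.02 in the Control arrays and 5.40, 6.48 and 6.19 in the cKO arrays. A second shape, picked out after the values were seen, was shared by Snord16a, Snord35a, Snord42a, Snord55 and Snord70, which were high in Control 2, cKO 2 and cKO 3. Snord55 read 10.57, 13.21 and 11.53 in the Control arrays and 11.95, 12.99 and 12.84 in the cKO arrays. Snord70, inside Nop58, read 10.13, 12.58 and 10.39 in the Control arrays and 10.90, 11.96 and 12.12 in the cKO arrays.

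**Figure D2:**
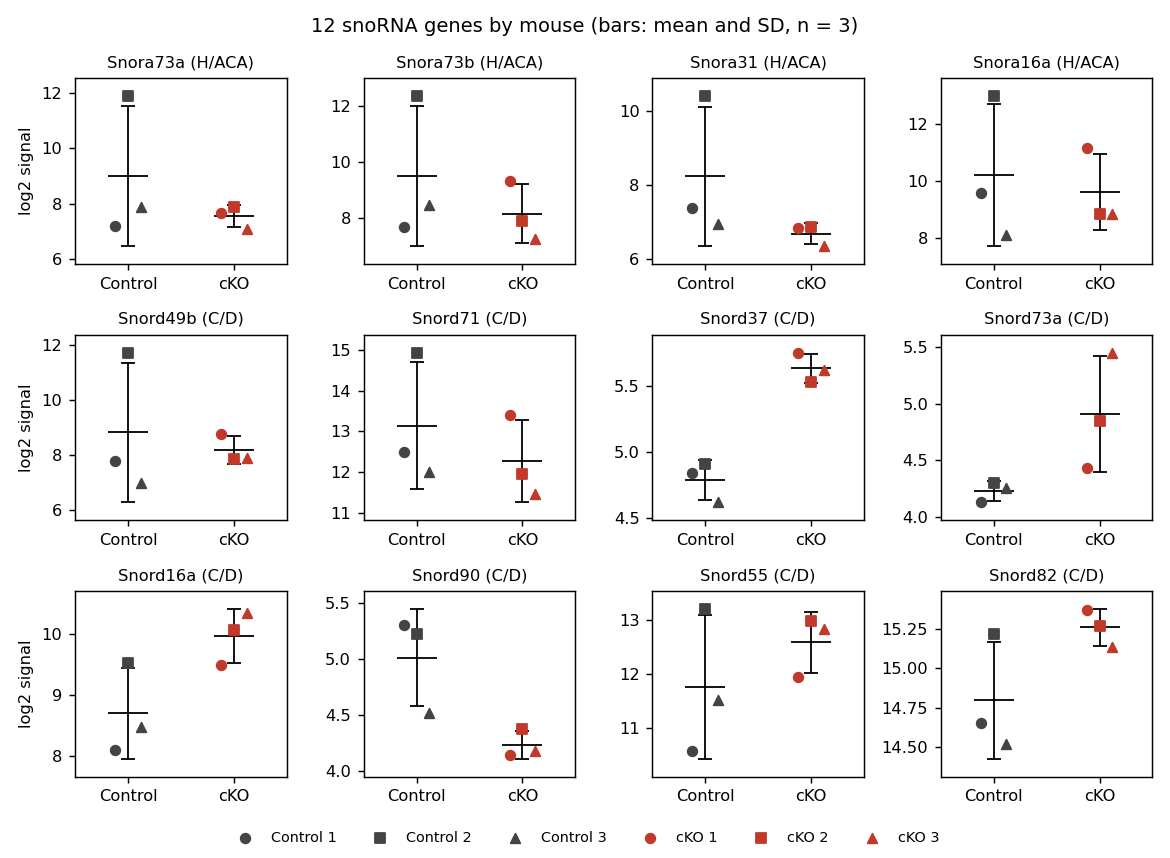
Log2 signal of 12 snoRNA genes in each mouse, grey for Control and red for cKO, with the group mean and SD (3 mice a group) as bars and a separate axis for each gene. In the first 6 panels Control 2 (grey square) is the highest point, and in Snord37, Snord73a and Snord90 the groups do not overlap.

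Other RNA classes were set beside the snoRNAs. Of 87 tested features that RefSeq types as rRNA, 94.3% exceeded the mean of the other arrays by more than 1 unit in Control 2, with a median excess of 3.82. For 657 features typed as snRNA the share was 43.1%, for 12464 protein-coding features 0.546% and for 349 miRNA features 0.86%. The 579 tested features typed as snoRNA that the rule did not choose gave 10.2%. Rmrp, the RNA of RNase MRP, read 12.05, 16.14 and 11.90 in the Control arrays and 13.18, 13.21 and 13.15 in the cKO arrays. Rpph1, the RNA of RNase P, read 12.77, 15.65 and 12.36 in the Control arrays and 13.86, 13.04 and 12.96 in the cKO arrays. The excess there was 0.11 in Terc, which was near the floor, and 0.01 in Rn7sk, which was at the top of the scale. Rn7s1 and Rn7s2, which read the same, had an excess of 0.78. At 19.88 in Control 2 they too were at the top of the scale. The median excess of the 579 snoRNA features outside the rule was -0.06, and 1 of the 42 features that list a snoRNA with another gene was over 1 unit. The excess was thus most frequent among rRNA and snRNA features, the snoRNAs chosen here and the few scaRNAs described next. The part of those other RNAs in the snoRNA values was not tested.

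The scaRNAs, close relatives that guide changes of spliceosomal RNAs in Cajal bodies, were 6 genes. Control 2 was the highest array for 4 of them. The excess there was over 1 unit for 3 of the 5 tested, against 2.52% of all features tested. These were Scarna10, Scarna6 and Scarna2, the last with an excess of 1.19. Scarna10 read 6.30, 9.64 and 5.43 in the Control arrays and 7.64, 6.08 and 5.90 in the cKO arrays, and Scarna6 had its highest signal in Control 2 as well. Scarna9 was different, with 7.97, 8.73 and 8.95 in the Control arrays and 10.53, 9.96 and 9.29 in the cKO arrays. Its groups did not overlap, with a difference of 1.37 (SE 0.39, limma, unadjusted p = 0.0106). Scarna17 was also higher in all cKO arrays, by 0.65 (SE 0.28, limma, unadjusted p = 0.054). Neither difference passed adjustment (limma, adjusted p = 0.999).

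The main comparison set cKO against Control. No snoRNA passed limma's test with Benjamini-Hochberg adjustment over all features, where the smallest adjusted p was 0.999, and neither did any of the 33334 features (0%). At an unadjusted p under 0.05, 3 of the 57 snoRNAs tested were higher in cKO and 1 was lower, against 3.7% and 0.807% of all features (1232 and 269, or 4.5% in both directions). The tilt of the background was smaller with other scalings, at 827 higher and 688 lower after quantile normalization and 822 and 504 after median centring. The snoRNAs were then 3 higher and 1 lower, and 2 higher and 1 lower. All 4 were C/D box genes. The 2 groups of arrays did not overlap for 4 of 62 genes in the higher direction, Snord37, Snord73a, Snord11 and Snora20, and for 2 in the lower direction, Snord90 and Snora31. Among the genes tested these were 3 and 2, against 8.95% and 2.05% of all features. On the deposited scale the shares of higher genes were close to those of the array as a whole, and the counts of lower genes rest on 1 and 2 genes. The count of 4 also moved with single arrays. Without Control 2 it was 8, 7 higher and 1 lower, beside 1072 features higher and 322 lower of 32553. Without Control 3 it was 8, 1 higher and 7 lower, beside 2559 and 506 of 32505. Without cKO 2 it was 2, 1 higher and 1 lower, beside 868 and 148 of 32437.

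Snord37, a methylation guide inside the elongation factor gene Eef2, gave the smallest p. It read 4.84, 4.91 and 4.62 in the Control arrays and 5.75, 5.53 and 5.62 in the cKO arrays. The difference was 0.84 (SE 0.14, limma, unadjusted p = 0.000565, adjusted p = 0.999). It was 0.90 without Control 2, and 0.87 and 0.95 within the low and high ranges of mouse numbers described further on. Every cKO array was above every Control array, by at least 0.6 units, at signals not far above the array medians.

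Snord16a, inside the ribosomal protein gene Rpl4, had the largest positive difference. It read 8.10, 9.54 and 8.48 in the Control arrays and 9.49, 10.08 and 10.36 in the cKO arrays, a difference of 1.27 (SE 0.42, limma, unadjusted p = 0.0199). Control 2 was just above cKO 1, so the groups touched, and without Control 2 the difference was 1.69. Snord73a, inside Rps3a1, read 4.13, 4.30 and 4.26 in the Control arrays and 4.43, 4.85 and 5.45 in the cKO arrays. The difference was 0.68 (SE 0.26, limma, unadjusted p = 0.0333), and without Control 2 its unadjusted p was 0.0584.

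Snord90, inside Rc3h2, was the 1 gene lower in cKO at this level. It read 5.30, 5.22 and 4.52 in the Control arrays and 4.15, 4.37 and 4.18 in the cKO arrays, a difference of -0.78 (SE 0.23, limma, unadjusted p = 0.0116). The difference was -0.68 without Control 2, -1.11 among the low mouse numbers and -0.24 among the high ones. Snord73a and Snord90 were the genes tested that fell below the array median on some array, so their signals lay close to the filter. The other 55 were above it on all 6 arrays.

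The largest negative differences belonged to genes whose Control mean was lifted by Control 2. Snora31 differed by -1.56 (SE 0.86, limma, unadjusted p = 0.115), Snora73a by -1.44 (SE 1.15) and Snora73b by -1.34 (SE 1.22). Without Control 2 the same differences were -0.48, -0.01 and 0.08. Snord49b went from -0.65 to 0.80, Snora16a from -0.60 to 0.77 and Snord58b from -0.11 to 1.09. Snord98, inside Ccar1, was also highest in Control 2 but lost less without it. It read 5.72, 7.20 and 6.88 in the Control arrays and 4.86, 5.79 and 6.12 in the cKO arrays. It differed by -1.01 (SE 0.47, limma, unadjusted p = 0.0697), and by -0.71 without Control 2.

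**Figure D3:**
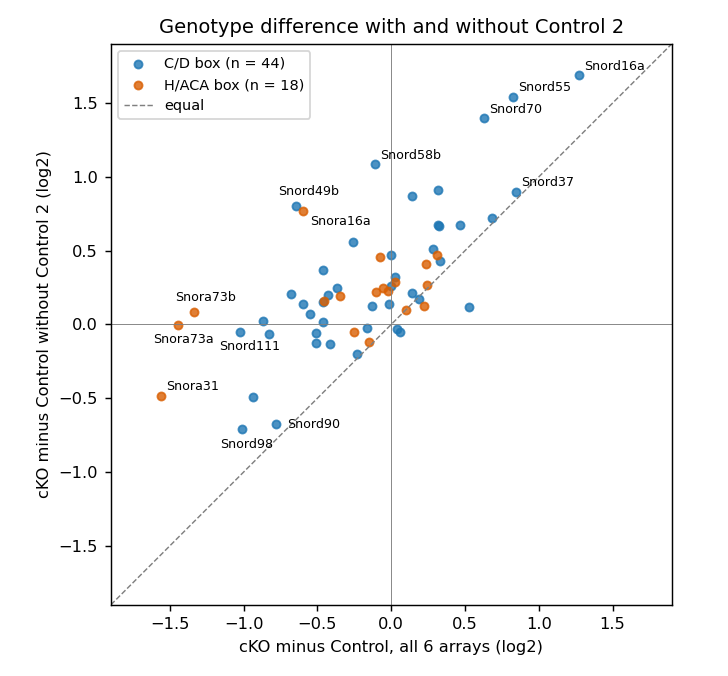
The cKO minus Control difference of each snoRNA gene (log2) from all 6 arrays on the horizontal axis and without Control 2 on the vertical axis, with a dashed line where both are equal. Most points lie above the line, and Snora31, Snora73a and Snora73b move from below -1.3 to between -0.5 and 0.1.

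Over all 62 genes the median difference was -0.11, with 25 genes higher and 37 lower and a range from -1.56 to 1.27. Over all features the median was 0.06. The median of the members on each array was 6.64, 7.62 and 6.77 in the Control group (7.01 ± 0.53, SD, n = 3) and 7.14, 6.53 and 6.41 in the cKO group (6.69 ± 0.39, SD, n = 3), so the groups overlapped. Without Control 2 the median difference was 0.20, the opposite sign. Among the low mouse numbers it was 0.02, among the high ones 0.16, and with the range as a block 0.12. The sign of the median therefore depended on that array and on the block.

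Without Control 2, 7 of 57 snoRNAs were higher in cKO at an unadjusted p under 0.05 and 1 was lower, against 3.29% and 0.989% of features, and none passed adjustment (limma, smallest adjusted p = 0.9998). The 7 were Snord37, Snord16a, Snord58b, Snord82, Snord55, Snord70 and Snord11, all of the C/D class. Snord58b then differed by 1.09 (SE 0.25), Snord55 by 1.54 (SE 0.44), Snord70 by 1.40 (SE 0.41) and Snord82 by 0.67 (SE 0.19). Snord82, inside Ncl, read 14.65, 15.22 and 14.52 in the Control arrays and 15.37, 15.27 and 15.14 in the cKO arrays. Only Control 2 overlapped the cKO arrays there, and with it the difference was 0.46 (SE 0.24).

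None of the other bright C/D genes had an unadjusted p under 0.05. Snord71 differed by -0.87 (SE 0.85), Snord104 differed by -0.42 (SE 0.47), Snord87 by -0.47 (SE 0.58), Snord69 by -0.55 (SE 0.65), Snord61 by -0.83 (SE 0.69) and Snord110 by -0.46 (SE 0.78). Without Control 2, Snord61 differed by -0.06 and Snord71 by 0.02. Among bright H/ACA genes, Snora21 differed by -0.08 (SE 0.58), Snora47 by -0.06 (SE 0.40), Snora30 by 0.23 (SE 0.31) and Snora68 by -0.02 (SE 0.30). Snora30 had a narrow cKO group, from 8.08 to 8.15, beside Control values of 7.17, 8.24 and 8.25. Snora2b, Snora78 and Snora69 differed by 0.22, 0.31 and -0.25, and Snord72 and Snord66 by -0.94 and -0.51, each with an unadjusted p over 0.05. Without Control 2, Snord72 differed by -0.49, Snord66 by -0.12 and Snora69 by -0.05.

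The classes were compared by the same values. The median difference was -0.12 in the C/D class and -0.09 in the H/ACA class, and 0.20 and 0.21 without Control 2. The C/D median minus the H/ACA median on each array was -0.28, -0.33 and 1.27 in the Control group (0.22 ± 0.91, SD, n = 3) and 0.10, 0.51 and 0.32 in the cKO group (0.31 ± 0.20, SD, n = 3). The groups differed by 0.09, less than the spread within either, and by -0.19 without Control 2. Without Control 3 they differed by 0.61, and the gaps of the other Control arrays lay below those of all cKO arrays. The median difference gene by gene was then -0.29 in the C/D class and -0.26 in the H/ACA class. With all 6 arrays but only the genes tested, the groups differed in the gap by -0.10, the opposite sign. Control 3 stood out, since its H/ACA median was 5.61 while its C/D median was 6.89. Relative to each gene's own mean over the 6 arrays, the class medians in Control 3 were alike, at -0.45 for C/D and -0.40 for H/ACA. Over the genes tested, its H/ACA median was 6.34 and its C/D median 6.90. The gap in Control 3 thus depended on the genes included and does not show a larger fall of the H/ACA class. The absolute size of each gap has no meaning across features, and only its change between arrays is read here.

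Mouse numbers in the labels fell into 2 ranges that each held both genotypes. Control 1, Control 2 and cKO 1 came from mice 715, 716 and 733, and Control 3, cKO 2 and cKO 3 from mice 776, 779 and 780. The labels do not say what a range stands for. With genotype in the model, 18 of 57 snoRNAs had a lower signal in the high numbers at an unadjusted p under 0.05 and 1, Snord35b, a higher one. The background was 7.86% lower and 5.67% higher, 13.5% together. That split turned with the scaling. The 1891 features higher and 2620 lower became 2785 and 2495 after quantile normalization, with 1 and 18 snoRNAs, and 4108 and 1162 after centring each array on its median, with 1 and 9 snoRNAs. The lower genes were 11 of 41 in the C/D class, Snord14a, Snord23, Snord43, Snord45b, Snord69, Snord71, Snord87, Snord93, Snord104, Snord110 and Snord123. In the H/ACA class they were 7 of 16, Snora16a, Snora19, Snora21, Snora62, Snora68, Snora75 and Snora78. Without Control 3 the count of 19 became 7, all lower, beside 887 features higher and 6191 lower of 32505. It was 12 without cKO 1, 1 higher and 11 lower, beside 3743 and 907 of 32597. Without cKO 2 it was 12, all lower, beside 1440 and 1167 of 32437. With all 6 arrays no snoRNA passed adjustment (limma, smallest adjusted p = 0.239), and neither did any feature (0%, with 4511 at an unadjusted p under 0.05). The arrays of the ranges did not overlap for 15 of the 57 genes in the lower direction, against 12.6% of features, and for 1 in the higher direction, against 7.21%.

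Snord14a had the smallest p in this comparison, at -1.04 (SE 0.14, limma, unadjusted p = 0.000391). Snord104 differed by -1.17 (SE 0.21, limma, unadjusted p = 0.00141) and Snora75 by -1.82 (SE 0.41, limma, unadjusted p = 0.00495). Snord104 read 13.96, 14.35 and 14.18 in the low numbers and 13.04, 12.93 and 12.99 in the high numbers, with a gap of about 0.9 units between the ranges and little spread within either. Snora16a had the largest difference, -2.74 (SE 0.89), followed among the 18 by Snora75, Snord71 at -1.71 (SE 0.65) and Snord110 at -1.58 (SE 0.59). Snord35b differed by 0.86 (SE 0.32). An interaction of genotype and range was fitted too. It rests on Control 3 alone in the high Control mice and cKO 1 alone in the low cKO mice, so no counts are given.

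**Figure D4:**
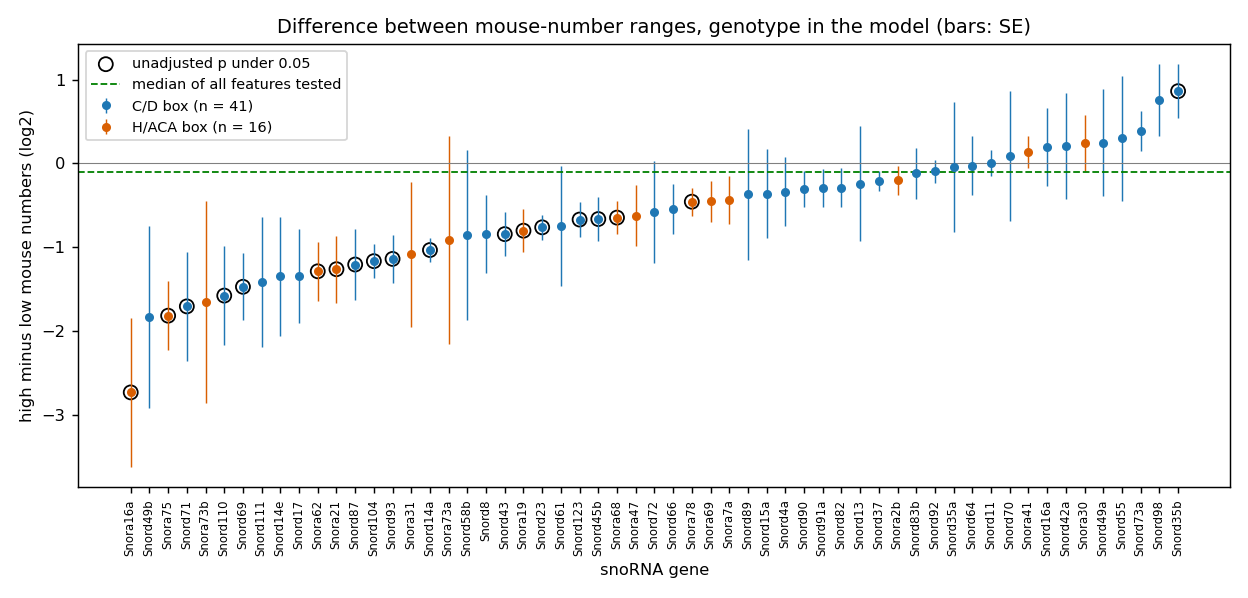
Difference between high and low mouse numbers for the 57 snoRNA genes tested, from limma with genotype in the model (log2, bars show the SE), ordered from low to high, with the median of all features tested as a dashed line. Of the ringed genes, those at an unadjusted p under 0.05, 18 lie below 0 and 1, Snord35b, above it.

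The median difference between ranges was -0.58 over the snoRNAs tested, -0.37 in the C/D and -0.73 in the H/ACA class, beside -0.10 over all features tested. Without Control 2, which belongs to the low range, the median was -0.31 beside -0.11. The counts were then 19 lower and 6 higher of 57, against 8.93% and 5.1% of features. The 6 higher genes were Snord98, Snord55, Snord49a, Snord42a, Snord35b and Snord70, all C/D box genes, and 3 of them belonged to the second shape described above. Snora16a then differed by -1.95 (SE 0.27) and Snord98 by 1.12 (SE 0.17).

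Host genes were found by position. Of the 62 snoRNA genes, 53 lie inside exactly 1 other gene of RefSeq's GRCm38.p6 annotation, 6 inside several and 3, Snord118, Snord13 and Snord89, inside none. The gene list used gives no strand, so strand was not considered. There were 47 different genes that held them, and 18 of the 53 snoRNAs lie in ribosomal protein genes, 16 genes in all. A host feature with 1 symbol was present for 27 snoRNAs. The host of Snord14e, Hspa8, was within 0.1 units of the highest value on every array, where no excess can show, so that pair was left out and 26 pairs remained. Among these, Snora35 and its host Htr2c were kept although neither was tested. Htr2c read 3.5 to 3.8, below the median of every array.

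In these 26 pairs the hosts did not carry the excess of Control 2. The snoRNAs with the largest excess had no host feature and are not among the pairs. They were Snora73a (4.31), Snora73b (4.22), Snord49b (3.86) and Snora16a (3.65). The excess was over 1 unit for 8 of these 26 snoRNAs and for none of the hosts, whose values ran from -0.80 to 0.32. Snora31 had an excess of 3.52 while Tpt1, its host, had 0.00, reading 6.80, 6.81 and 6.81 in the Control arrays and 6.94, 6.76 and 6.74 in the cKO arrays. Snord111 had 2.94 beside -0.26 in Sf3b3, and Snord61 2.34 beside -0.36 in Rbmx. The median range over arrays was 1.14 for these snoRNAs and 0.48 for their hosts. Across the 26 pairs, which share arrays and in places a host, Pearson's r between host and snoRNA excess was 0.02 and Spearman's rho 0.16.

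**Figure D5:**
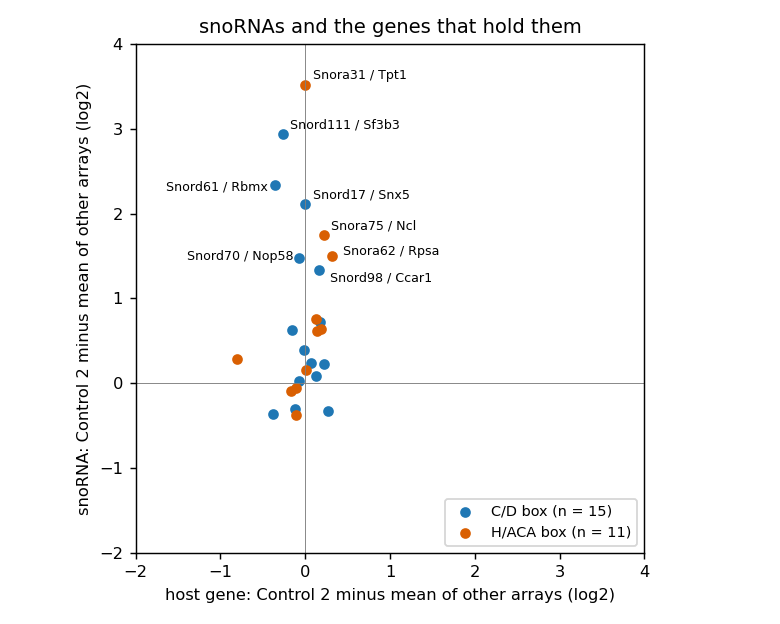
Control 2 minus the mean of the other 5 arrays (log2) for 26 snoRNAs (vertical axis) and the genes that hold them (horizontal axis), both axes on the same scale, with the pairs over 1 named. The snoRNAs reach 3.52 and the hosts stay between -0.80 and 0.32.

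The genotype differences of hosts and snoRNAs were as loosely tied. They had the same sign in 11 of 26 pairs, with r = 0.06 and rho = 0.02 across pairs. Eef2 differed by 0.20 beside 0.84 in Snord37, and Rpl4 by -0.08 beside 1.27 in Snord16a. Ncl holds both Snord82 and Snora75, which differed by 0.46 and -0.46, and itself differed by -0.29. Without Control 2 the differences of Snord82 and Snora75 were 0.67 and 0.16, both positive. Nop58 holds Snord11 and Snord70, which differed by 0.33 and 0.63, and itself differed by 0.20. Of a separate list of host genes, most of them non-coding, 9 of 24 had a feature of their own and 7 were tested, with none at an unadjusted p under 0.05. Snhg14 and Snhg18 on this list are also hosts in the pairs above. Snhg14 differed by -0.07, Snhg18 by 0.22 (within it lies Snord123, at 0.00), Snhg5 by 0.19, Snhg15 by 0.12 and Cdkn2aipnl by 0.09.

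Proteins that build, modify or store snoRNA particles were taken as a list of 32 symbols, of which 27 had a feature and 26 were tested. None passed adjustment, 2 were higher and 1 lower at an unadjusted p under 0.05, against 3.7% and 0.807% of all features, and the median difference was 0.05. Nolc1, a nucleolar and Cajal body phosphoprotein that binds snoRNA particles, read 7.41, 7.74 and 7.54 in the Control arrays and 8.41, 8.23 and 8.17 in the cKO arrays. It differed by 0.71 (SE 0.17, limma, unadjusted p = 0.0045), with no overlap. Naf1, an assembly factor of H/ACA particles, read 7.81, 8.35 and 8.78 in the Control arrays and 9.20, 9.04 and 9.21 in the cKO arrays, a difference of 0.83 (SE 0.27, limma, unadjusted p = 0.0181). Rpap3, part of the R2TP chaperone complex, read 8.03, 8.27 and 7.64 in the Control arrays and 7.55, 7.47 and 7.11 in the cKO arrays, a difference of -0.60 (SE 0.22, limma, unadjusted p = 0.0322).

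The core proteins of the particles that had a feature of their own differed by no more than about their errors. Nop56 and Snu13 of the C/D particle had none, so that core was measured only in part. In the C/D particle, Fbl differed by 0.06 (SE 0.19) and Nop58 by 0.20 (SE 0.23). In the H/ACA particle, Dkc1 differed by 0.13 (SE 0.24), Nhp2 by -0.11 (SE 0.20), Nop10 by 0.05 (SE 0.20) and Gar1 by -0.13 (SE 0.18). Taf15 differed by -0.45 (SE 0.22). None of the 27 proteins had an excess over 1 unit in Control 2, where the list's median excess was 0.00.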

How the data were processed

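Soleus RNA of 3 Control and 3 cKO mice was measured on Affymetrix whole-transcript arrays, 1 array a mouse, per the labels' protocols. The deposited table holds 1 column of log2 values per array, made by the authors. Log2 was read from their range of 1.92 to 19.93, and the log base, background correction, normalization, software and build are not given in the sources used here. Of 72688 features, 6732 had no value and were left out. Of the rest, 30604 listed 1 symbol, 2146 several and 33206 none here. All 62 snoRNA genes matched RefSeq's GRCm38.p6 gene table by Entrez identifier.

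Features above the median of their array on at least 3 arrays were tested, 33334 in all, including 57 snoRNAs. Snora20, Snora35, Snord118, Snord85 and Snord88c were not. The tests, two-sided, came from lmFit and eBayes (with an intensity trend) of limma 3.58.1, run in R 4.3.3, with Benjamini-Hochberg adjustment over all features tested. Tables and plots used Python 3.11.15, pandas 2.3.3, numpy 2.4.6 and matplotlib 3.10.9. The fit was also run on simulated data with independent noise for each feature. Those data held no shift shared over an array, so no result here rests on that run. The number range was a second term where stated. Nothing beyond the mouse numbers says that samples were kept apart, so p-values measure the spread between these arrays.

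The snoRNAs, the protein, host, marker and RNA lists, and the rule for named genes were chosen with earlier results of these data known. The rule took, per class, the 8 highest means, in each direction those with an unadjusted p under 0.05 and full separation, filled to 4 by the smallest p, the 8 widest ranges, rRNA-processing snoRNAs, core snoRNA proteins and the host pairs with the largest differences. Snord14a, Snord104 (in the comparison of mouse numbers), Snora75, Snord35a, Snord35b, Snord42a, Snord49a, Rmrp, Rpph1, Scarna6, Scarna9, Scarna10 and Scarna17 were described there after their values were seen. So were Rn7s1, Rn7s2 and Scarna2. Hosts were to be on the snoRNA's strand, but the gene table gives none, and some host genes are not reported here. The pair of Snord14e and Hspa8 was left out after its values were seen. Alternatives were quantile normalization, median centring, 2 other filters, averaging a gene's features, other eBayes settings, array weights, blocks and each array left out. Runs without Control 2 for named genes and for the median between number ranges were added after the data were seen.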

Additional observations from a re-analysis of the deposited data

How the results depend on the processing

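Of the alternatives run, the count of features past an adjusted p of 0.05 (limma) was above 0 only without Control 3, giving a range of 0 to 14 when single arrays were left out. The 4 snoRNAs at an unadjusted p under 0.05 became 1 of 44 with a filter at the 75th percentile, beside 991 features higher and 166 lower of 16630. With array weights they became 9, 7 higher and 2 lower, beside 2747 and 1509 features of 33334. When single arrays were left out the count ranged from 2 (without cKO 2) to 8 (without Control 2 or without Control 3). The 19 of the comparison of mouse numbers became 10 with median centring. With array weights they became 7, all lower, beside 1094 features higher and 1019 lower of 33334. When single arrays were left out the count ranged from 7 (without Control 3) to 27 (without Control 1), with 12 without cKO 1 or cKO 2. The 27 were 1 higher and 26 lower, beside 1579 and 2950 features of 32551. With the number range as a block, Snord110 became 0.065, Snora16a 0.31, Snora21 0.34, Snora47 0.15, Snora68 0.20, Snord58b 0.17 and Nhp2 0.023. With quantile normalization, Snora19 became -0.044, Fbl -0.065 and Nop10 -0.029. Without Control 2, the sign turned for 14 of 50 named genes, to 0.014 in Snord87, 0.025 in Snord71, 0.072 in Snord69, 0.37 in Snord110, 0.77 in Snora16a, 0.46 in Snora21, 0.084 in Snora73b, 0.24 in Snora47, 0.23 in Snora68, 0.80 in Snord49b, 1.09 in Snord58b, 0.20 in Snord13, 0.21 in Snord14e and 0.033 in Nhp2. When single arrays were left out, the median difference of the snoRNAs ranged from -0.28 to 0.20, that of the C/D class from -0.29 to 0.20, that of the H/ACA class from -0.29 to 0.21, and the change of the C/D minus H/ACA gap from -0.19 (without Control 2) to 0.61 (without Control 3). The replicate block gave 5 snoRNAs, a median of -0.11 (C/D -0.12, H/ACA -0.09) and 0 features past adjustment. Correlations of same-numbered deviations from the group means were 0.13, -0.20 and 0.21. With 3 arrays a group these cannot show whether the replicate numbers pair the samples. Other causes of these changes were not tested. The scale's unstated processing and 3 arrays a group limit all values, and signals near the array median, as in Snord37, Snord73a and Snord90, limit those genes.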
